A study of Mus musculus with 12 samples.

Results

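The proteases described here are Cma1, Mcpt4, Mcpt1, Mcpt2, Mcpt8, Ctsg, Gzmb and Gzmc, 8 serine proteases of the chymase locus, out of 19938 genes measured. A gene was taken where the platform annotation gives a probe set exactly 1 of these symbols. Each of the 8 had 1 such probe set. Mice without ACKR2 (ACKR2-/-, D6KO in the sample titles), a decoy receptor for inflammatory CC chemokines, were compared with wild type mice, both labelled C57BL/6, female and 4 to 6 weeks old. Marrow cells of both genotypes were cultured as bone marrow derived mast cells with stem cell factor at 12.5 ng/ml and interleukin 3 at 10 ng/ml. The groups are ACKR2-/- at 10 weeks, wild type at 10 weeks, ACKR2-/- at 2 weeks and wild type at 2 weeks of culture, with 3 arrays in each. How the ACKR2 allele was made is not given in the labels, and neither is which 2-week cultures were enriched on CD117, the product of Kit. The labels call the arrays biological replicates but tie none to an animal or culture, so p-values measure the spread between these arrays only. All levels are log2 signals and all differences are differences of log2 signals.

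Chymases are chymotrypsin-like proteases that mast cells store in their granules, bound to the proteoglycan serglycin, and release on activation. In the mouse the locus holds genes used by different cells: connective tissue mast cells (Cma1, Mcpt4), mucosal mast cells (Mcpt1, Mcpt2), basophils (Mcpt8), neutrophils and mast cells (Ctsg, cathepsin G), and cytotoxic lymphocytes and mast cells (Gzmb, granzyme B), with Gzmc, granzyme C, known from cytotoxic T cells. Members arose by duplication, so that probes may be shared between them. Probe sequences were not used here, and this was not tested.

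Mast cell transcripts were low on 4 of the 12 arrays. The 9 measured mast cell markers averaged between 6.75 and 6.92 on the 3 arrays labelled ACKR2-/- at 2 weeks and on wild type 2-week array 3, against 12.66 to 13.08 on the other 8 arrays. On these 4 arrays cytotoxic T and NK cell markers averaged 8.60 to 10.63, against 6.67 to 7.58, and B cell markers 10.13 to 12.88, against 6.45 to 6.91. The 4 arrays were not alike. ACKR2-/- 2-week array 3 had 8.60 in the cytotoxic list and 12.88 in the B cell list. ACKR2-/- 2-week arrays 1 and 2 and wild type 2-week array 3 had 10.51, 10.55 and 10.63 in the cytotoxic list. In the B cell list they had 10.37, 10.32 and 10.13. Xist also read at most 6.23 on the 4 arrays and at least 13.00 on the others, although every label gives female mice. The Y-linked genes went the other way. Eif2s3y read 10.57 to 11.22 on the 4 arrays, against at most 4.61 on the others. Kdm5d read 10.06 to 10.51, against at most 6.42, and Uty 9.36 to 9.98, against at most 5.35. The probe set of Ackr2 read 8.16 to 8.34 on ACKR2-/- and 7.88 to 8.35 on wild type 10-week arrays, and 7.79 to 9.43 on ACKR2-/- and 8.19 to 8.38 on wild type 2-week arrays, so it did not check the genotype. Group names below are therefore the labels and nothing more, and each result that rests on the 4 arrays is given with and without them where both arms remain.

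**Figure D1:**
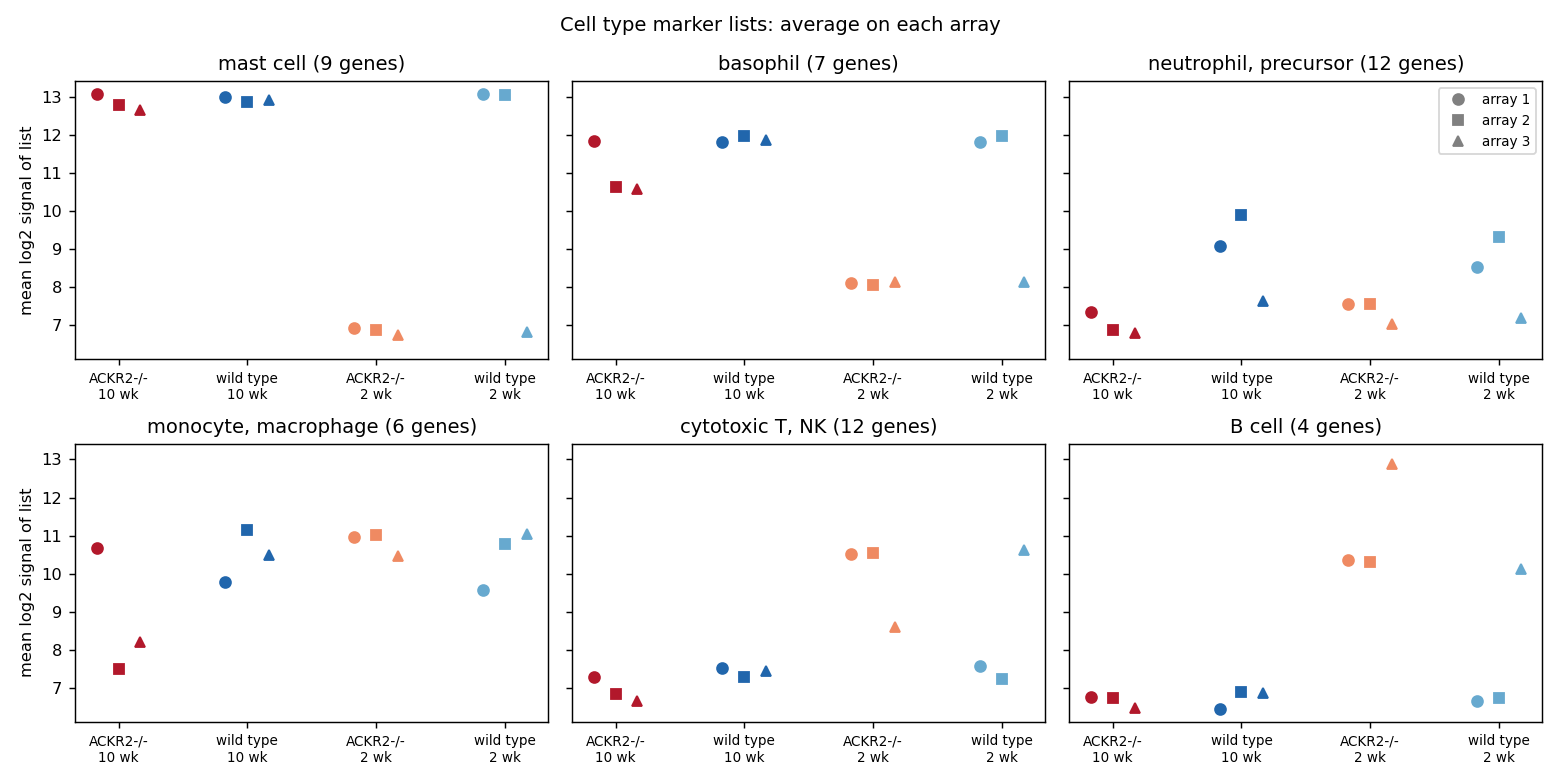
Average log2 signal of 6 lists of cell type markers (y axis) on each of the 12 arrays (points, shape by array number), by labelled group (x axis). The 3 ACKR2-/- 2-week arrays and wild type 2-week array 3 lie between 6.75 and 6.92 in the mast cell list, against 12.66 to 13.08 on the other 8.

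Along the chromosome the members lie in the order Cma1, Mcpt1, Mcpt2, Mcpt4, Mcpt8, Ctsg, Gzmc and Gzmb in the RefSeq annotation of GRCm38.p6. Cma2 and Mcpt9 lie among the first of these genes and Gzme, Gzmd, Gzmg, Gzmn and Gzmf between Ctsg and Gzmc. The 250 bases before the start of 6 members are printed because the results turn on these members: Mcpt4 and Mcpt1 with their neighbours Mcpt8 and Ctsg, which varied between the 10-week arrays, and Cma1 and Gzmb from the ends of the locus, which varied less. They are RefSeq sequences of GRCm38.p6, read 5′ to 3′ on the strand of the gene, with GATAA, or TTATC where it lies on the other strand, in capitals. Mcpt4 is chr14:56062311-56062560 on the minus strand, Mcpt1 chr14:56017714-56017963 on the plus strand, Mcpt8 chr14:56085198-56085447 on the minus strand, Ctsg chr14:56102575-56102824 on the minus strand, Cma1 chr14:55944676-55944925 on the minus strand and Gzmb chr14:56262335-56262584 on the minus strand.
Mcpt4: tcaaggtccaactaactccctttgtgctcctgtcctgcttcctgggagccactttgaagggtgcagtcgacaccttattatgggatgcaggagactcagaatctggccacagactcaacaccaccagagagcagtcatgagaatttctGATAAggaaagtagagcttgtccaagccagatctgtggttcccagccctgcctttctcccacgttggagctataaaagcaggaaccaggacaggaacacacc
Mcpt1: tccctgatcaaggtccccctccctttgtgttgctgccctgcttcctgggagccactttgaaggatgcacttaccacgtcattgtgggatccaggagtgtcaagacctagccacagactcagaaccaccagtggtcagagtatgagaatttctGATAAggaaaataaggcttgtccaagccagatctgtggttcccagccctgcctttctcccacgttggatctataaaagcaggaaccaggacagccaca
Mcpt8: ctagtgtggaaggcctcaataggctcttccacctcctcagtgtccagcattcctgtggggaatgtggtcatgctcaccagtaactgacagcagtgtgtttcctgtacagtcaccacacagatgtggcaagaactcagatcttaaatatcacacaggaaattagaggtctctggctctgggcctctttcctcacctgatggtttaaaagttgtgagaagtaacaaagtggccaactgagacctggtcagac
Ctsg: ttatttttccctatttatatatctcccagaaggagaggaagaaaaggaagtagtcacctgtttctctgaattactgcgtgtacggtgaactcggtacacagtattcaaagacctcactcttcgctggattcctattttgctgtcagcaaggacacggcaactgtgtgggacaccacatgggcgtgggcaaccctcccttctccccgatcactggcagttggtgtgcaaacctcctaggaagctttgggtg
Cma1: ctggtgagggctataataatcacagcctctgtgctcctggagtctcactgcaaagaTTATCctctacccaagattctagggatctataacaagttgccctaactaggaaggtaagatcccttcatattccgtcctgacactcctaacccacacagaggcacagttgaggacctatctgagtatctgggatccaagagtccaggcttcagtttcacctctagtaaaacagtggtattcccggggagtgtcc
Gzmb: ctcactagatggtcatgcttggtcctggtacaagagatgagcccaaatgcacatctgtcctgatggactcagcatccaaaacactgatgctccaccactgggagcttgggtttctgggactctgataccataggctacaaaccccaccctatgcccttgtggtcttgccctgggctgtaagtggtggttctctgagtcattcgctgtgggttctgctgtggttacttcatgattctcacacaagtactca
A window was found for 7 of the 8 members, Mcpt2 being the exception. The windows of Mcpt4 and Mcpt1 were identical at 213 of 260 aligned columns, or 81.9%, against 47.0% to 54.8% for the 20 other pairs. Both hold GATAA on the forward strand, 102 bases before the start in Mcpt4 and 98 in Mcpt1, and Cma1 holds it on the reverse strand at 194 bases. The core bound by GATA factors, GATAA on either strand, was present in 3 of 7 member windows and in 22.6% of 32841 RefSeq windows of the same length. CANNTG, the core of the E-box that MITF and other basic helix-loop-helix factors bind, reads the same on both strands. It was present in 5 of 7, all but Mcpt4 and Mcpt1, against 66.2% of windows. These are matches of letters in a window and not sites of binding.

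On the arrays labelled 10 weeks Mcpt1, Mcpt2, Mcpt4, Mcpt8 and Ctsg, which are neighbours among the members, had lower means in the ACKR2-/- group, while Cma1, Gzmc and Gzmb had slightly higher ones. Limma called 0 of 8 members and 0% of all genes after Benjamini-Hochberg adjustment. At an unadjusted p under 0.05 limma had Mcpt4, Mcpt8 and Ctsg, 3 of 8, all lower, against 3.53% of all genes lower and 7.85% in either direction. The median difference of the 8 members was -1.62, against 0.008 for all genes. On 4 of 8 members, Mcpt4, Mcpt1, Mcpt8 and Ctsg, all 3 ACKR2-/- arrays lay below all 3 wild type arrays, which held for 5.98% of all genes. In Ctsg these groups were only 0.011 apart.

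Mcpt8, a protease used as a marker of basophils, read 11.81, 7.41 and 7.02 on ACKR2-/- 10-week arrays 1 to 3, against 12.94, 13.24 and 12.51 on wild type 10-week arrays 1 to 3. Arrays 2 and 3 of the ACKR2-/- group were low, while array 1 was 0.699 below the lowest wild type array. The difference was -4.15 ± 1.67 (SE), or 17.7-fold lower, with a limma adjusted p of 0.582. Ctsg read 10.37, 6.58 and 6.17 on the ACKR2-/- arrays, against 12.18, 11.39 and 10.38 on the wild type arrays. The same ACKR2-/- arrays 2 and 3 were low, at levels near the 5.89 to 6.37 of the 4 arrays low in mast cell transcripts, and array 1 was level with wild type array 3. The difference was -3.61 ± 1.50 with a limma adjusted p of 0.594.

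Mcpt4, the chymase of connective tissue mast cells that cleaves most like human chymase, read 8.66, 7.29 and 7.30 on ACKR2-/- 10-week arrays, against 12.66, 11.21 and 9.05 on wild type 10-week arrays. The groups were 0.39 apart, and the wild type arrays spread over 3.60, wider than the 1.38 of the ACKR2-/- arrays. The difference was -3.22 ± 1.30, 9.33-fold lower, with a limma adjusted p of 0.582. Mcpt1, a chymase of mucosal mast cells, read 5.82, 5.70 and 5.55 on the ACKR2-/- arrays, against 9.09, 6.91 and 5.91 on the wild type arrays, which left -1.62 ± 0.78 between them (limma adjusted p of 0.658). Wild type array 1 was the high one, and array 3 lay only 0.093 above the ACKR2-/- group. Mcpt2, its neighbour, also of mucosal mast cells, read 8.72, 9.01 and 9.41 on the ACKR2-/- arrays, against 12.75, 10.63 and 8.61 on the wild type arrays, which left -1.62 ± 1.65 (limma adjusted p of 0.912). Here the groups overlapped, because wild type array 3 was the lowest of the 6. In all of Mcpt4, Mcpt1 and Mcpt2, wild type array 1 was highest and wild type array 3 lowest of its group. Without wild type 10-week array 1 the differences were smaller, at -2.38 for Mcpt4, -0.72 for Mcpt1 and -0.57 for Mcpt2.

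Cma1, which encodes the alpha-type chymase also called mMCP-5, read 11.37, 12.10 and 12.14 on ACKR2-/- 10-week arrays, against 11.96, 11.07 and 11.28 on wild type 10-week arrays. The groups overlapped, with a difference of 0.43 ± 1.11, a 95% interval from -2.04 to 2.90 and a limma adjusted p of 0.993. Gzmb, which in cytotoxic cells triggers death of the target cell, read 13.53, 13.99 and 13.88, against 13.41, 13.65 and 13.37. These groups overlapped as well, with a difference of 0.32 ± 1.16, an interval from -2.24 to 2.88 and a limma adjusted p of 0.998. ACKR2-/- arrays 2 and 3, the low ones in Mcpt8 and Ctsg, were the 2 highest of the 6 in both Cma1 and Gzmb. Gzmc read between 6.75 and 6.99 on the ACKR2-/- arrays and between 6.65 and 6.76 on the wild type arrays, and differed by 0.14 ± 0.11 (limma adjusted p of 0.853). The intervals of Cma1 and Gzmb are wide because the error is pooled over 4 groups, and wild type at 2 weeks spread most, with an SD of 3.03 for Cma1 and 3.11 for Gzmb.

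**Figure D2:**
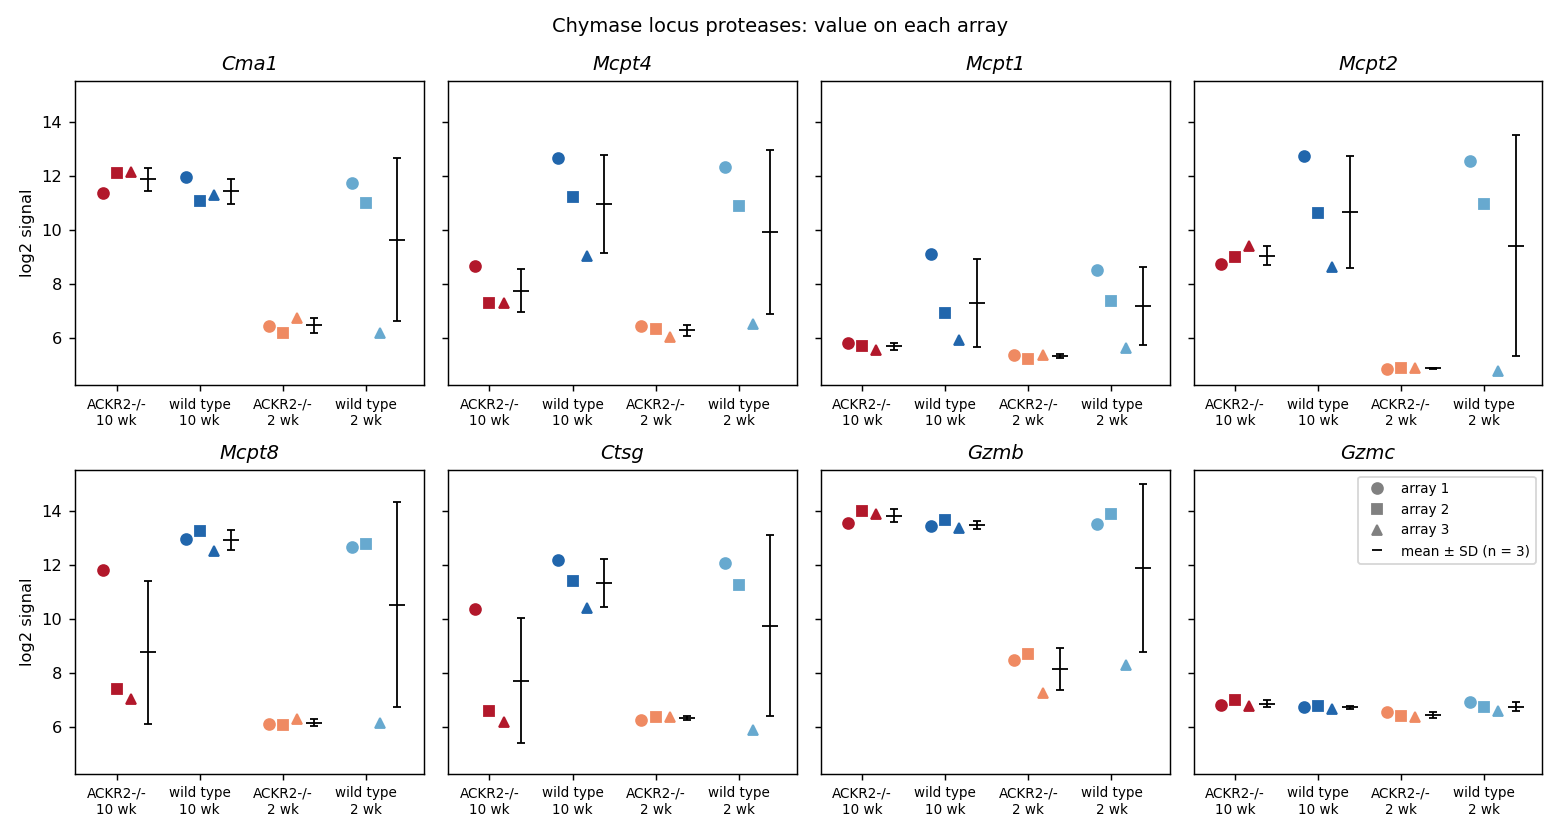
Log2 signal (y axis) of each protease on the 12 arrays (points, shape by array number) by labelled group (x axis), with the mean and SD of 3 arrays beside each group. Cma1 and Gzmb are high on all 6 10-week arrays, while Mcpt8 and Ctsg are low on ACKR2-/- 10-week arrays 2 and 3, at 7.41 and 7.02 and at 6.58 and 6.17.

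Without the 4 arrays low in mast cell transcripts, the differences at 10 weeks stayed the same by construction and their errors were smaller, or for Gzmc the same. Mcpt8 then had -4.15 ± 1.08 and Mcpt4 -3.22 ± 0.84, both with a limma adjusted p of 0.243, and Ctsg -3.61 ± 1.01 with 0.253. The difference of Cma1 was 0.43 ± 0.31 and that of Gzmb 0.32 ± 0.16, with limma adjusted p of 0.631 and 0.453. In this fit too limma called 0 of 8 members and 0% of all genes. Without ACKR2-/- 10-week array 1, the ACKR2-/- array nearest to wild type in Mcpt8, Ctsg and Mcpt4, limma gave -5.68 for Mcpt8 (adjusted p of 0.223), -4.94 for Ctsg (adjusted p of 0.249) and -3.68 for Mcpt4 (adjusted p of 0.462).

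**Figure D3:**
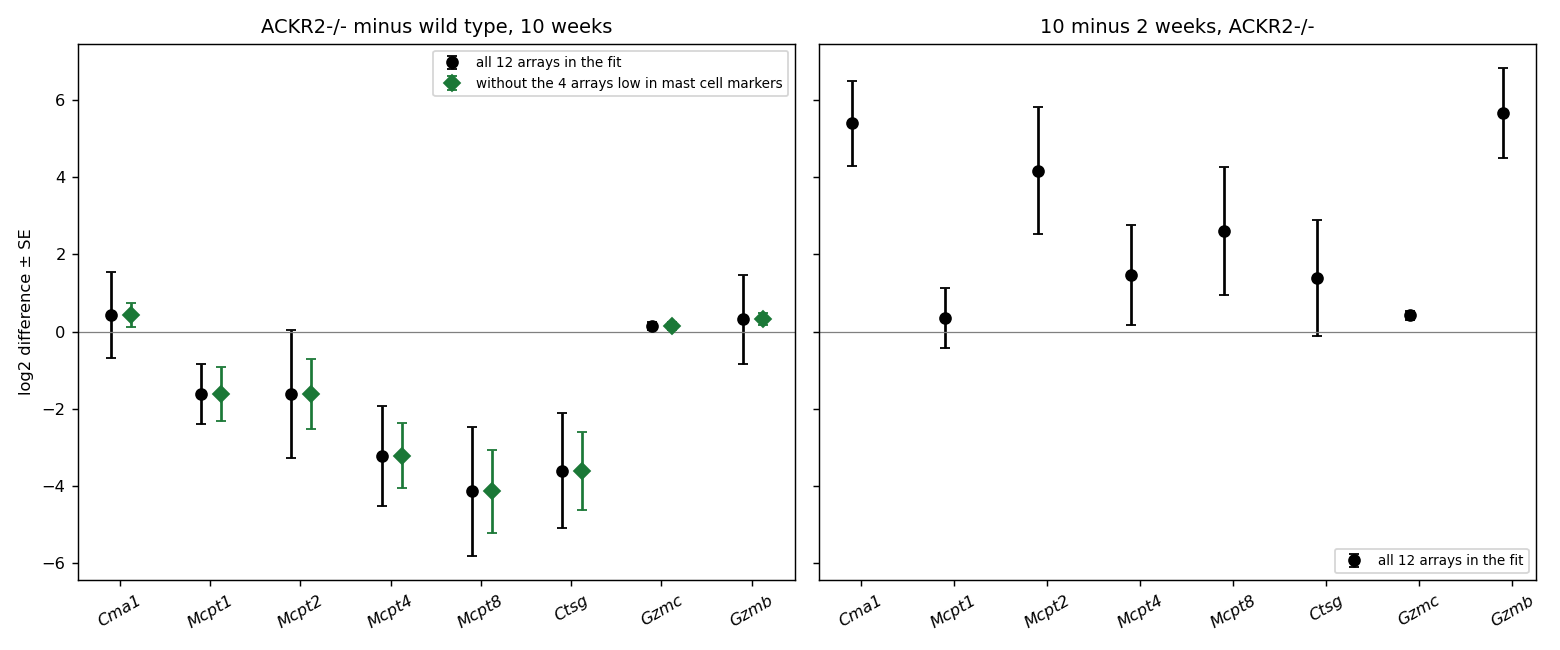
Log2 difference with its standard error (y axis) for each protease in chromosomal order (x axis), ACKR2-/- minus wild type at 10 weeks on the left and 10 minus 2 weeks in ACKR2-/- on the right, with all 12 arrays in the fit (circles) or, at 10 weeks only, without the 4 arrays low in mast cell transcripts (diamonds). At 10 weeks the estimates run from 0.43 for Cma1 down to -4.15 for Mcpt8 and back to 0.32 for Gzmb.

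Markers of other cells also differed between the 10-week arrays, in part on the same arrays as these proteases. Basophil markers averaged 11.85, 10.62 and 10.57 on ACKR2-/- arrays 1 to 3, against 11.80 to 11.96 on wild type arrays, with 6 of 7 differences below 0. The median of these differences was only -0.29, and Prss34 (-3.68) and Ccl3 (-1.64) lay furthest below 0. Prss34, a protease of basophils and mast cells encoded elsewhere, is thus part of this average. It read 11.30, 7.52 and 7.51, against 12.68, 12.43 and 12.26, the same arrays being low as in Mcpt8. Neutrophil and precursor markers averaged 7.36, 6.87 and 6.79, against 9.08, 9.90 and 7.63, with 12 of 12 below 0. Monocyte and macrophage markers averaged 10.67, 7.51 and 8.21, against 9.79, 11.15 and 10.48, with 6 of 6 below 0. In this list and in the basophil list ACKR2-/- array 1 lay within the wild type range. Wild type array 1, the highest in Mcpt4, Mcpt1 and Mcpt2, was the lowest wild type array in the monocyte and macrophage list. Mpo, a peroxidase stored with cathepsin G in neutrophil granules, read 9.44, 6.89 and 6.99, against 10.67, 11.39 and 9.07. Mast cell markers averaged 12.66 to 13.08, against 12.87 to 13.00, with 6 of 9 above 0 and 3 below. Among those below, Hdc read 11.78, 10.30 and 9.23, against 12.07, 11.86 and 11.73. Tpsb2 read 12.29, 11.06 and 10.93, against 12.19, 12.02 and 12.04. ACKR2-/- arrays 2 and 3 were thus the low ones in these mast cell markers as well. Cytotoxic T and NK cell markers averaged 6.67 to 7.30, against 7.29 to 7.54. None of these lists had a member past the threshold, and the values carry no detection call, so no marker can be called absent. In whole cultures, fewer cells of a type and less RNA per cell cannot be told apart. What part these cells had in the differences of Mcpt8, Ctsg and Mcpt4 was not tested.

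**Figure D4:**
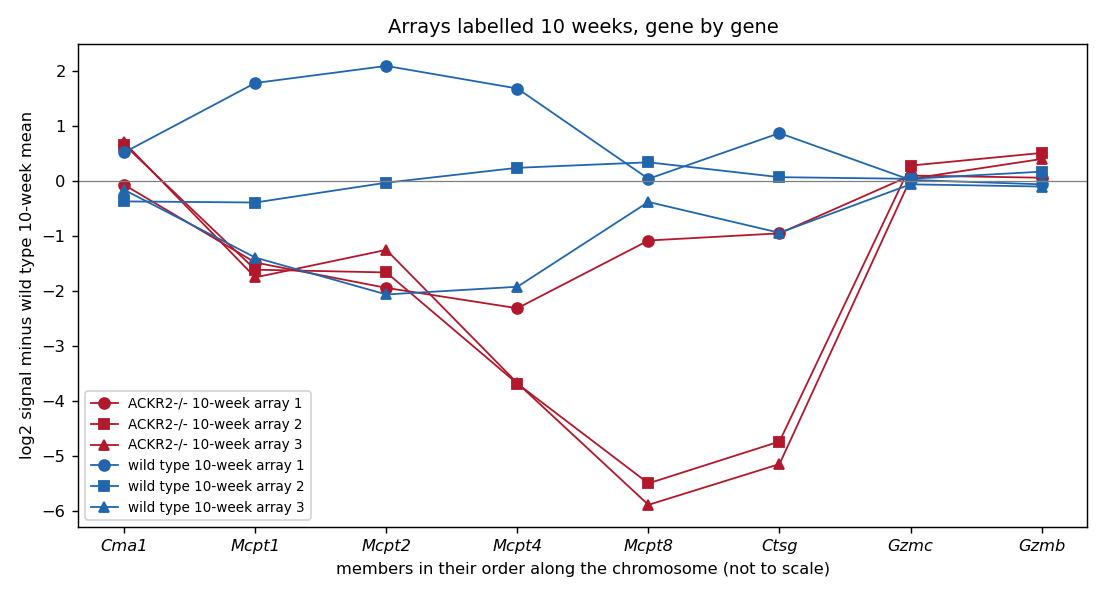
Log2 signal on each 10-week array minus the wild type 10-week mean (y axis) for the members in chromosomal order (x axis, not to scale), with 1 line per array only to guide the eye. ACKR2-/- arrays 2 and 3 reach -5.49 and -5.88 at Mcpt8, while array 1 stands at -1.08 there and at -2.31 at Mcpt4.

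The spread over the 6 arrays labelled 10 weeks separated the members. It was 6.22 for Mcpt8 and 6.01 for Ctsg, and 6 and 8 of 19938 genes, in this order, had a wider one. It was 5.37 for Mcpt4, 4.14 for Mcpt2 and 3.54 for Mcpt1, with 16, 56 and 91 genes wider. By contrast it was 1.07 for Cma1, 0.62 for Gzmb and 0.34 for Gzmc, against a median of 0.53 for all genes. Wider were 2027, 7414 and 16240 genes, in this order, so that Cma1 still varied more than most genes. Likeness was measured as the root mean square difference of gene-centred log2 values, where 0 means the same pattern. Over these 6 arrays it was 0.54 between Mcpt8 and Ctsg, 0.43 between Mcpt1 and Mcpt2, 0.96 between Mcpt4 and Mcpt1, and 2.93 between Cma1 and Mcpt8. It was 0.35 between Cma1 and Gzmb, 0.17 between Gzmb and Gzmc and 0.39 between Cma1 and Gzmc. The measure is small for any genes of small spread, so these 3 values do not show a shared pattern.

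By the same measure over all 12 arrays, the genes nearest to Mcpt8 were Rnase2a, Akr1c18 and Prss34 at 0.56, 0.60 and 0.67. Nearest to Ctsg were Prss34 (0.41), Mcpt8 (0.77) and Mcpt4 (0.79). Mcpt4 was nearest to Ctsg (0.79), Mpo (0.94) and the lectin gene Mgl2 (0.97). The nearest to Mcpt1 were Pcbd1, Gpx3 and Epx, which encodes eosinophil peroxidase, at 0.34, 0.37 and 0.38. Mcpt2, the member with the widest range over the 12 arrays (7.98), had Igfbp5, Spink2 and Ptprg at 0.91, 1.03 and 1.08. For Cma1 they were Mrgpra4, Angpt1 and Hrh4, a histamine receptor gene, at 0.30 to 0.32, and for Gzmb Ifitm1, Arhgap20 and Kit at 0.25, 0.29 and 0.31. Gzmc, which varied little, was nearest to Pi4k2a, Med25 and Akr1c20, at 0.06 to 0.09. Over the 6 10-week arrays alone Mcpt8 was nearest to H2-Aa, Prss34 and Cd74 (0.40 to 0.42) and Ctsg to Prss34, Mcpt8 and Cyp4f18 (0.42 to 0.55). Mcpt2 was nearest to Mcpt1 and to the chemokine gene Ccl17 (0.43 and 0.49) and then to Epx (0.59), and Mcpt1 to Aldh1a2, Ccl22 and Epx (0.32 to 0.38). Mcpt4 was nearest to Prg2, which encodes the major basic protein of eosinophils, at 0.70, then to Clec12a and Igfbp7 (0.78 and 0.81). The nearest genes of Cma1 (Dcun1d2, Polr1b and Rragb), Gzmb (Oit3, Inka1 and Aph1b) and Gzmc (Crtc3, Paxx and Emx2) lay at 0.03 to 0.06, where many genes of small spread are alike.

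In the arrays labelled wild type, the levels of several members went with the array number at both times. Wild type arrays 1 and 2 read 12.66 and 11.21 at 10 weeks in Mcpt4, against 12.33 and 10.90 at 2 weeks. Mcpt2 read 12.75 and 10.63 at 10 weeks, against 12.54 and 10.95 at 2 weeks, and Ctsg 12.18 and 11.39, against 12.05 and 11.25. Mcpt1 read 9.09 and 6.91, against 8.51 and 7.36, and Cma1 11.96 and 11.07, against 11.74 and 11.00. Array 1 was higher than array 2 at both times in all 5 of these genes. In 5 of 8 members both same-numbered pairs of arrays 1 and 2 were closer than either pair of different numbers, against 19.9% of all genes. The exceptions were Mcpt8, Gzmb and Gzmc. Over the 8 members, same-numbered arrays 1 and 2 were a median of 0.22 apart and differently numbered ones 0.80.

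Array 3 did not follow this. At 10 weeks wild type array 3 read 12.51 in Mcpt8, 11.28 in Cma1, 13.37 in Gzmb and 8.61 in Mcpt2, against 6.14, 6.17, 8.30 and 4.77 on wild type 2-week array 3, 1 of the 4 arrays low in mast cell transcripts. With all arrays limma called 0 of 8 members, and 0% of all genes, between 10 and 2 weeks in wild type, with 0 of 8 members and 6.65% of genes at an unadjusted p under 0.05. Cma1 differed by 1.80 ± 1.11, Mcpt8 by 2.38 ± 1.67 and Gzmb by 1.59 ± 1.16, each with a limma adjusted p of 0.784. Without the 4 arrays, which leaves 2 wild type arrays at 2 weeks, the differences were 0.07 ± 0.34 for Cma1, 0.19 ± 1.20 for Mcpt8, -0.20 ± 0.18 for Gzmb, -0.64 ± 0.94 for Mcpt4 and -1.08 ± 1.01 for Mcpt2. In that fit limma again called 0 of 8 and 0% of all genes, with member adjusted p from 0.940 to 0.995.

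**Figure D5:**
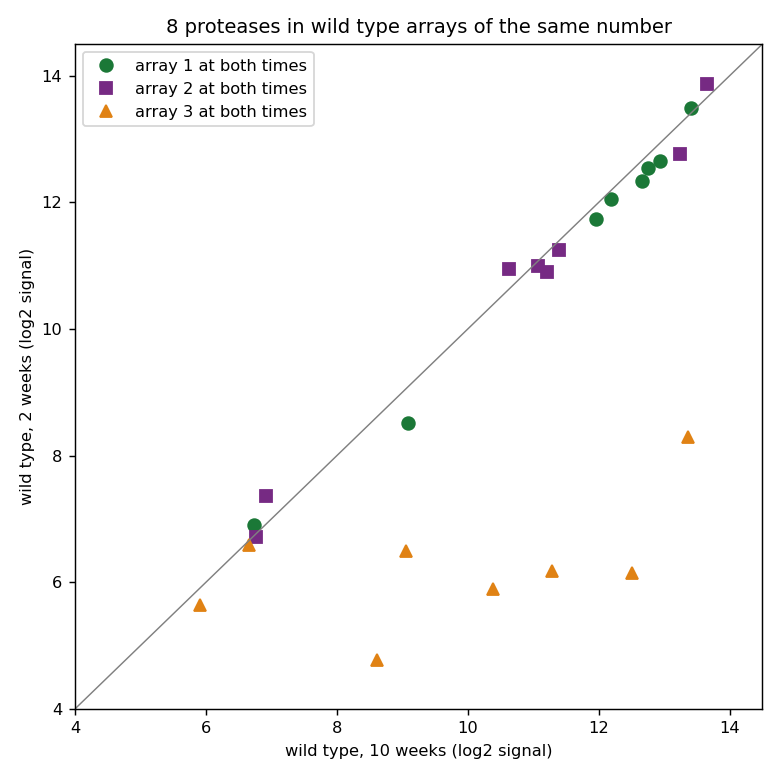
Log2 signal of the 8 proteases on wild type arrays of the same number, at 10 weeks (x axis) and at 2 weeks (y axis), with the line of equal values. Arrays 1 and 2 lie near the line, at most 0.58 from it (Mcpt1, array 1), and array 3 falls below it by up to 6.38 (Mcpt8).

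At 10 weeks against 2 weeks in the arrays labelled ACKR2-/-, Cma1, Gzmb and Gzmc rose and no member fell. These 3 of 8 compare with 10.5% of all genes higher, 6.33% lower and 16.8% changed in either direction. Cma1 read 11.37, 12.10 and 12.14 at 10 weeks, against 6.46, 6.19 and 6.75 at 2 weeks, 5.40 ± 1.11 apart (42.4-fold, limma adjusted p of 0.0142). Gzmb read 13.53, 13.99 and 13.88, against 8.47, 8.68 and 7.26, 5.67 ± 1.16 apart (50.8-fold, limma adjusted p of 0.0141). Gzmc read 6.82, 6.99 and 6.75, against 6.55, 6.39 and 6.36, only 0.42 ± 0.11 apart (1.34-fold, limma adjusted p of 0.0297). All 2-week arrays of this comparison were low in mast cell transcripts, so that time of culture and this property of the arrays cannot be told apart. Prf1, which encodes the pore-forming perforin of cytotoxic lymphocytes, read 10.46, 10.54 and 8.93 on these 2-week arrays, against 7.69 to 7.93 on the 10-week arrays. Between the 2 times Prf1 and Gzmb thus differed in opposite directions, while among the 2-week arrays array 3 was lowest in both. Which cells gave the Gzmb signal was not tested.

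The other members were higher on average at 10 weeks without passing the test. Mcpt2 read 8.72, 9.01 and 9.41 on ACKR2-/- 10-week arrays, against 4.84, 4.88 and 4.90 on ACKR2-/- 2-week arrays. The groups were 3.82 apart and the difference was 4.17 ± 1.65, with a limma adjusted p of 0.115. Mcpt8 differed by 2.61 ± 1.67, Mcpt4 by 1.47 ± 1.30, Ctsg by 1.39 ± 1.50 and Mcpt1 by 0.36 ± 0.78, with limma adjusted p from 0.340 to 0.818. In 7 of 8 members, all but Ctsg, every 10-week array lay above every 2-week array, which held for 26.7% of all genes. The gap was 0.166 in Mcpt1, 0.203 in Gzmc, 0.731 in Mcpt8 and 0.834 in Mcpt4, against 4.619 in Cma1 and 4.857 in Gzmb. With only these 6 arrays in the fit, limma called 6 of 8 members, all but Mcpt8 and Ctsg, against 15% of all genes higher. Without ACKR2-/- 10-week array 2 or array 3 limma called 0 members and 0 genes, with adjusted p of 0.0555 and 0.0584 for Cma1 and 0.0555 and 0.0584 for Gzmb. The call of Gzmc was lost without any 1 of the 6 arrays, at adjusted p from 0.0531 to 0.122.

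Between ACKR2-/- and wild type at 2 weeks the members were below 0 in 8 of 8 cases, with a median of -3.52 against -0.024 for all genes, and limma called 0 of 8 and 0% of all genes. All 8 had an unadjusted p under 0.05, as did 17.5% of genes, 10.7% being lower. Mcpt2 read 4.84, 4.88 and 4.90 on ACKR2-/- 2-week arrays, against 12.54, 10.95 and 4.77 on wild type 2-week arrays. Mcpt8 read 6.09, 6.05 and 6.29, against 12.65, 12.77 and 6.14. Wild type array 3 thus had the level of the ACKR2-/- arrays, and only in Mcpt4, Mcpt1 and Gzmc, 3 of 8, did all ACKR2-/- arrays lie below it, by 0.038 to 0.253, against 8.6% of all genes. Without that array limma called 8 of 8 members lower and 23.8% of all genes, 13.5% lower, with differences from -0.38 for Gzmc to -6.87 for Mcpt2. That fit sets 3 arrays low in mast cell transcripts against 2 high in them, and genotype cannot be told apart from this. The genotype by week interaction gave 0 of 8 members and 0% of all genes past the threshold. At an unadjusted p under 0.05 it had Cma1, Gzmb and Gzmc, 3 of 8, against 11.4% of all genes. The interaction estimates were 3.60 ± 1.58 for Cma1, 4.07 ± 1.63 for Gzmb and 0.45 ± 0.16 for Gzmc, with limma adjusted p of 0.428, 0.424 and 0.424.

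In the order of group means, Cma1 and Gzmb were highest in ACKR2-/- at 10 weeks, then wild type at 10 weeks, wild type at 2 weeks and ACKR2-/- at 2 weeks, and all neighbours in this order overlapped. Cma1 averaged 11.87 ± 0.43 in ACKR2-/- at 10 weeks, 11.44 ± 0.46 in wild type at 10 weeks, 6.46 ± 0.28 in ACKR2-/- at 2 weeks and 9.63 ± 3.03 in wild type at 2 weeks (SD, n = 3 each). Mcpt4, Mcpt1, Mcpt2, Mcpt8 and Ctsg were highest in wild type at 10 weeks, then wild type at 2 weeks, ACKR2-/- at 10 weeks and ACKR2-/- at 2 weeks. Mcpt8 averaged 8.75 ± 2.66 in ACKR2-/- at 10 weeks, 12.90 ± 0.37 in wild type at 10 weeks, 6.14 ± 0.13 in ACKR2-/- at 2 weeks and 10.52 ± 3.79 in wild type at 2 weeks (SD, n = 3 each). Of these neighbours only the 2 ACKR2-/- groups lay apart, and in Ctsg not even they did. For Gzmc the order was ACKR2-/- at 10 weeks, wild type at 2 weeks, wild type at 10 weeks and ACKR2-/- at 2 weeks, with the last of these apart. The wild type 2-week means include array 3, 1 of the 4 arrays low in mast cell transcripts. Without the 4 arrays the 2 wild type groups changed places in Mcpt4, Mcpt1, Mcpt2, Ctsg and Gzmb. Their differences, 10 minus 2 weeks, were then -0.64, -0.63, -1.08, -0.33 and -0.20, none of them called. Mcpt8 (0.19) and Cma1 (0.07) stayed above 0.

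The 5 other measured genes of the locus, the granzyme genes Gzmd, Gzme, Gzmf, Gzmg and Gzmn, averaged between 5.98 and 6.27 on all 12 arrays, and none passed the test in any comparison. Their differences at 10 weeks between ACKR2-/- and wild type ran from -0.05 for Gzme to 0.13 for Gzmf. Of 12 measured granule proteases encoded elsewhere, 0 passed at 10 weeks between genotypes, where their median was -0.57 with 9 of 12 below 0. Prtn3 and Elane, neutrophil serine proteases, differed by -1.92 ± 0.65 and -2.17 ± 0.92, Prss34 by -3.68 ± 1.35 and Prss57 by -0.49 ± 0.13, with limma adjusted p from 0.480 to 0.605. Elane was highest on wild type 10-week array 2, at 11.14, against 9.18 on array 1 and 7.79 on array 3, an order unlike that of Mcpt4, Mcpt1 and Mcpt2. Between 10 and 2 weeks in ACKR2-/-, 3 of the 12 rose and 1 fell, against 10.5% of all genes higher and 6.33% lower. Cpa3, mast cell carboxypeptidase, rose by 7.81 ± 1.66 and the tryptase genes Tpsg1 and Tpsb2 by 5.23 ± 1.16 and 4.67 ± 1.14, while Gzma, granzyme A, fell by 2.06 (SE 0.52), with limma adjusted p from 0.0146 to 0.0238.

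Genes that activate, store or inhibit these proteases showed a median difference of 0.06 between ACKR2-/- and wild type at 10 weeks, with 0 of 16 past the threshold. Ctsc, the peptidase that removes the activating dipeptide of granule serine proteases, read 12.19, 12.52 and 12.54 on ACKR2-/- 10-week arrays, against 12.38, 12.40 and 11.98 on wild type 10-week arrays. It was singled out after its values were seen. Srgn, which encodes serglycin, differed by 0.34 ± 0.23 with a limma adjusted p of 0.802. Slpi, an inhibitor of neutrophil elastase and cathepsin G, read 9.13, 7.55 and 7.73 on the ACKR2-/- arrays, against 9.48, 9.59 and 9.57 on the wild type arrays. Its difference was -1.41 ± 0.34, with a limma adjusted p of 0.480, and ACKR2-/- arrays 2 and 3 were the low ones again. Between 10 and 2 weeks in ACKR2-/-, 3 of 16 rose and 1 fell, against 10.5% of all genes higher and 6.33% lower. Ndst2, an enzyme of heparin sulfation, rose by 2.97 ± 0.58, Serpinb6a, a serpin, by 2.04 ± 0.32 and Cst7, cystatin F, an inhibitor of Ctsc, by 2.83 ± 0.73, with limma adjusted p from 0.0137 to 0.0265. Serpinb6b, another serpin, fell by 1.80 (SE 0.54, limma adjusted p of 0.0439).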

How the data were processed

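Log2 signals of 35399 probe sets on 12 arrays were used as the authors deposited them, and per the submitters' processing notes they are RMA values from Partek 6.5. This method subtracts background, brings arrays to 1 distribution and summarises probes, which compresses differences near background. The values carry no detection call, so signal over background and scan batches were not examined, and the number of arrays limits the precision. The genome build is not given in the sources used here. The platform annotation gave 21789 probe sets 1 symbol, and the one with the highest mean stood for a gene. Limma 3.58.1 (R 4.3.3) estimated 4 group means from the 12 arrays together (8 residual and 2.39 prior degrees of freedom). P-values were adjusted by Benjamini-Hochberg over 19938 genes per contrast, and an adjusted p under 0.05 counted as changed. The test was run on simulated data with normal noise, equal in all groups, and spreads drawn from the less variable genes. That run does not cover genes as variable as most of these proteases, or groups of unequal spread. Named were the 8 members, the 3 genes nearest to each in pattern, and up to 4 genes with the lowest p of each list, other genes being examples chosen after their values were seen. Members and lists were chosen with earlier results of these data known.

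Replicate numbers were checked for pairing by correlating deviations from the group means over genes. In wild type, 10 against 2 weeks, the same-numbered pairs had correlations from 0.166 to 0.359, above the 0.1 required, against at most 0.023 for other pairs. The other comparisons did not reach it. These pairs include array 3, although Xist read 5.77 on wild type 2-week array 3 and 13.11 on wild type 10-week array 3. Deviations of 3 arrays from their mean sum to 0, so the correlations of the pairs are not independent of each other. The pairing comes from the data alone, since the labels name no shared animal or day.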

Additional observations from a re-analysis of the deposited data

How the results depend on the processing

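With array weights, limma called 8 members and 9197 genes between genotypes at 2 weeks, 9550 genes between 10 and 2 weeks in ACKR2-/-, and 3 members and 4136 genes in the interaction. With only the arrays compared, 6 members were called between 10 and 2 weeks in ACKR2-/-. With the replicate number as a block, members called stayed at 3 between 10 and 2 weeks in ACKR2-/- (2897 genes against 3358) and at 0 in the other contrasts, also in wild type arrays alone, a fit chosen after seeing the data.

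Leaving out 1 array gave 0 to 8 members and 0 to 4738 genes between genotypes at 2 weeks, 0 members and 0 to 129 genes at 10 weeks, 0 to 4 members and 0 to 4994 genes between 10 and 2 weeks in ACKR2-/-, 0 members and 0 genes between 10 and 2 weeks in wild type, and 0 to 4 members and 0 to 3138 genes in the interaction. The highest counts at 2 weeks and in the interaction came without wild type 2-week array 3, the 129 without ACKR2-/- 10-week array 1.

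Uncalled differences between 10 and 2 weeks in wild type turned negative with array weights (Mcpt4 -1.10, Mcpt1 -0.82, Mcpt2 -1.43, Ctsg -0.42, Gzmb -0.17) and without the 4 arrays low in mast cell transcripts (-0.64, -0.63, -1.08, -0.33 and -0.20, in this order). Of the 4 arrays only wild type 2-week array 3 enters these differences, and leaving out that array alone gave the same values. The cause of the change with array weights was not tested. The interaction of Ctsg was 1.02 with array weights, against -0.20. Leaving out 1 array, the uncalled wild type difference ran from -0.64 to 2.27 for Mcpt4, -0.75 to 0.83 for Mcpt1, -1.08 to 2.81 for Mcpt2, -0.33 to 2.74 for Ctsg, -0.20 to 2.59 for Gzmb and -0.10 to 0.06 for Gzmc. The uncalled interaction ran from -0.81 to 2.11 for Mcpt4, -0.47 to 1.11 for Mcpt1, -1.31 to 2.42 for Mcpt8 and -1.53 to 1.72 for Ctsg. Over all member differences and alternatives, 696 kept their direction and side of the threshold, 28 passed it anew, 10 no longer passed it and 32 changed sign. Scaling, the probe set rule and the eBayes options changed no count of called members. The filter on dim genes took Mcpt1 and Gzmc out of the test. It left 2 members called between 10 and 2 weeks in ACKR2-/-, Cma1 and Gzmb.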

Other observations

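Among 16 transcription factors known for mast cells, basophils or cytotoxic cells, the median difference between ACKR2-/- and wild type at 10 weeks was 0.09 and 0 passed the threshold. Cebpa, which encodes a factor of myeloid and basophil differentiation, read 9.71, 6.80 and 6.74 on ACKR2-/- 10-week arrays, against 10.00, 10.50 and 10.19 on wild type 10-week arrays, and differed by -2.48 ± 0.67 (limma adjusted p of 0.480). Arrays 2 and 3, low in Mcpt8 and Ctsg, were low here too, while array 1 lay near the wild type arrays. Cebpb differed by -1.30 ± 0.39, with a limma adjusted p of 0.503. Gata2, needed in mast cells and basophils, read 13.65 to 13.77 on the ACKR2-/- arrays, against 13.72 to 13.77 on the wild type arrays, and Mitf, which activates mast cell protease genes, 11.07 to 11.13, against 10.66 to 10.92. Between 10 and 2 weeks in ACKR2-/-, 9 of 16 rose and 2 fell, against 10.5% of all genes higher and 6.33% lower. Mitf differed by 3.36 ± 0.62, Gata1 by 3.69 ± 0.71, Stat5a by 1.12 ± 0.20 and Ikzf1 by -1.21 ± 0.23 (limma adjusted p of 0.0137 each). The arrays of this comparison also differ in mast cell transcripts.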
